A study of Homo sapiens with 8 samples.

Results

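The comparison described here is bleomycin-induced senescence in cells that express YAP5SA, a constitutively active form of the transcriptional coactivator YAP. It rests on 4 of the 8 libraries, picked by their treatment labels alone: 2 of proliferating cells given doxycycline and 2 of senescent cells given doxycycline. The cells are IMR90, a human lung fibroblast line, carrying hTERT and the pInducer20 vector, from which doxycycline switches on an N-terminally Flag tagged YAP5SA. All 4 groups of the study carry hTERT and this vector and were grown at reduced oxygen. The senescent cells had been exposed to bleomycin, which cuts DNA, for 24 hours at 10 ug/ml and were taken 9 days after it. Proliferating cells had 11 days of doxycycline at 1 ug/ml and senescent cells had it through their last 11 days, so the transgene was switched on before the damage. The other 4 libraries, 2 of proliferating and 2 of senescent cells without doxycycline, give the same bleomycin comparison without induction and share no library with it. No group received doxycycline without the transgene, so the drug and YAP5SA cannot be told apart. Whether the line is a single clone is not given in the sources used here. Since no label calls the replicates separate cultures, p-values reflect only how far these samples spread, which may be technical.

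Senescence is a lasting exit from the cell cycle. The kinase inhibitors p21 and p16 keep the retinoblastoma proteins active, which shuts off the genes of DNA replication and mitosis. Senescent cells also lose parts of the nuclear lamina, enlarge their lysosomes and secrete cytokines, chemokines and proteases under NF-kappaB and interferon signalling. YAP is held in the cytoplasm by the Hippo kinases LATS1 and LATS2. When it is free it binds the TEAD factors and switches on genes of growth, matrix and the actin cytoskeleton, and YAP5SA lacks the serines through which LATS restrains it.

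The proliferating libraries with doxycycline held 33627708 and 39599531 counts and the senescent ones 37545738 and 35351961. Levels below are counts per 1000000 counts of the library (CPM), always in the order replicate 1 and replicate 2, and all libraries named have doxycycline unless stated. Of 10 fibroblast markers, 10 were above 1 CPM in these libraries. Their summed level was 18714 and 18986 CPM in proliferating and 12654 and 15109 CPM in senescent cells. By the test described below 4 of the 10 rose (DCN, LUM, PDGFRA and FAP) and 5 fell. Among those that fell, COL1A1 went from 6544 and 7328 to 3249 and 4281 CPM. COL1A2 went from 3247 and 3189 to 1889 and 2671 CPM. The lower sum was thus not a fall of every marker. Among markers of other cells, 5 of 11 epithelial, 3 of 8 endothelial, 1 of 8 leukocyte and 4 of 8 neuronal and glial genes passed 1 CPM in any of the 4 libraries. KRT5, SFTPC and SOX10 had no counts, and EPCAM, PECAM1 and PTPRC stayed under 1 CPM. The 3 endothelial genes over 1 CPM were TEK, EGFL7 and VWF, and all 3 rose with and without doxycycline. TEK went from 45.3 and 50.2 to 96.0 and 105.6 CPM. The leukocyte gene over 1 CPM was CD68, from 51.7 and 54.6 to 64.3 and 63.5 CPM (adjusted p = 0.069 by the test described below). The summed epithelial level, nearly all from KRT8 and KRT18, went from 488 and 479.7 to 633 and 582 CPM, and the part of such markers in any result was not tested. Mitochondrially encoded mRNAs took 7.05 and 6.88% of the counts of the proliferating libraries but 3.82 and 3.31% of the senescent ones. In bulk RNA, fewer cells of a kind and less RNA per cell cannot be told apart.

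YAP1 itself (chr11:102110447-102233424) went from 190.2 and 238 CPM to 291 and 287 CPM (log2 change 0.43, SE 0.10, adjusted p = 0.0023). Both senescent libraries were above both proliferating ones. Of 17155 genes tested, 12969 had no overlap between these 2 groups in either direction. Reads from the endogenous gene and from the transgene cannot be separated in this count. Without doxycycline YAP1 went from 197.8 and 195.4 CPM to 190.3 and 223.4 CPM. In proliferating cells the libraries with doxycycline lay on both sides of those without it. This count therefore shows no clear rise with doxycycline before bleomycin, and that comparison was not tested. The change without doxycycline was 0.073 (adjusted p = 0.56), and the difference between both changes was not past the threshold (0.36, adjusted p = 0.10). It did pass without proliferating replicate 2 with doxycycline, without senescent replicate 2 lacking it and with total counts only. Without proliferating replicate 1 the YAP1 change with doxycycline was 0.26 (adjusted p = 0.033).

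Bleomycin shut down genes of the dividing cell and raised secreted and interferon-induced genes in cells with active YAP. Among 17155 genes tested with edgeR's quasi-likelihood test at an adjusted p of 0.05, 4600 rose (26.8%) and 4919 fell (28.7%), of which 1912 rose and 1357 fell by over 2-fold. Cells without doxycycline had 5108 genes that rose (29.8%) and 5047 that fell (29.4%). In 6816 genes the call was made in the same direction in both, which is 71.6% of the calls with doxycycline and 67.1% of those without, while 145 genes rose with doxycycline and fell without it and 194 did the reverse. The plot of both changes for every gene shows this shared axis (Pearson r = 0.73, Spearman rho = 0.71 across 17155 genes, which are not independent replicates). Subtracting the change without doxycycline from the change with it gave 1386 genes with a higher (8.08%) and 2021 with a lower difference (11.8%). Of these 3407 genes, 911 changed in the same direction but less with doxycycline, and 389 changed more. Counts of list members below are to be read against the shares of all genes given here.

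**Figure D1:**
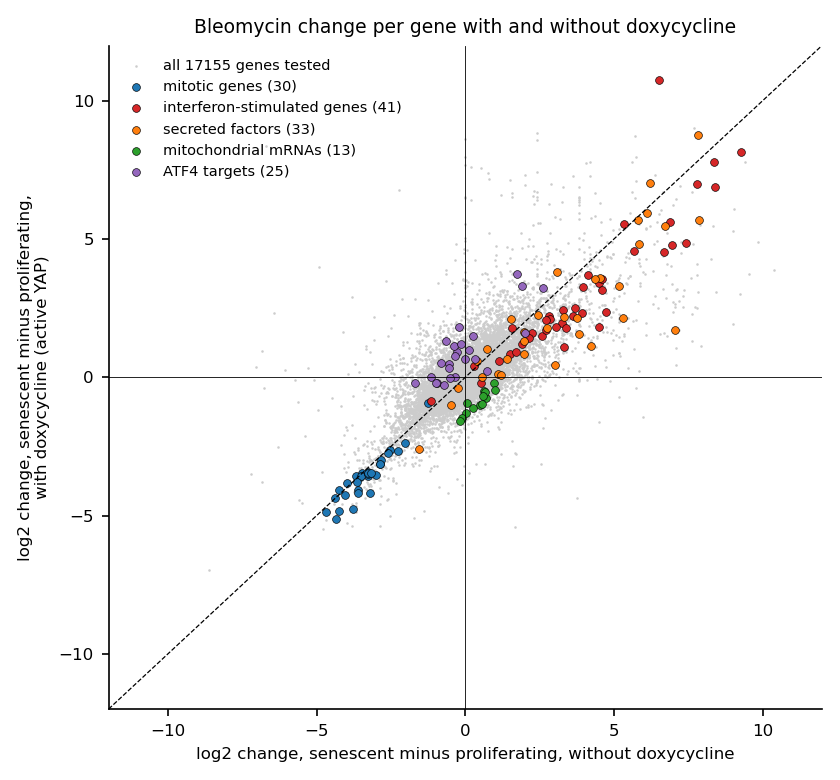
Fitted log2 change of senescent against proliferating cells without doxycycline (x axis) and with doxycycline (y axis) for each of 17155 genes, with grey points for all genes and colours for 5 gene lists. Of these genes 6816 were called in the same direction in both and 339 in opposite directions. The dashed line marks equal change.

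The count of differences depends on scaling and on single libraries. Scaling by total counts alone gave a higher difference in 2639 genes and a lower one in 1105, so 70.5% of the calls were higher against 40.7% with TMM factors, and the median difference of all genes moved from -0.03 to 0.15. The higher and lower counts were 733 and 1221 without proliferating replicate 1 lacking doxycycline and 704 and 1148 without replicate 2 of that group. Without senescent replicate 1 with doxycycline they were 825 and 1197, and without its replicate 2 the higher count was 918. Under the bleomycin comparison with doxycycline the share of higher calls was 48.3%, 48.6% with total counts only and 52.3% with DESeq2 size factors, where 4956 genes rose and 4523 fell.

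Secreted, complement and interferon-induced genes led the rises among genes with an average log2 CPM of at least 3. Some genes of lower level, such as OAS1 and CSF2, had larger fitted rises and are described with their lists. CXCL8 (chr4:73740569-73743716), the chemokine that draws neutrophils, went from 5.12 and 5.68 CPM to 321 and 239.9 CPM (log2 change 5.69, SE 0.27, adjusted p = 3.7e-06). C3 (chr19:6677704-6720650), the central complement component, went from 0.530 and 0.631 CPM to 27.9 and 30.5 CPM (log2 change 5.63, SE 0.14, adjusted p = 2.2e-13). SERPING1 (chr11:57597685-57614848), which encodes the inhibitor of the first complement protease, went from 3.85 and 4.42 CPM to 72.1 and 74.1 CPM (log2 change 4.14, SE 0.18, adjusted p = 5.9e-09). For all 3 both senescent libraries were many times above both proliferating ones. IFI6 (chr1:27666064-27672192), an interferon-induced survival protein, went from 16.6 and 12.6 CPM to 338 and 348 CPM (log2 change 4.56, SE 0.12, adjusted p = 2.7e-13). ICAM1 (chr19:10271120-10286615), an adhesion receptor for leukocytes, went from 12.2 and 12.8 CPM to 250.3 and 251 CPM (log2 change 4.32, SE 0.11, adjusted p = 2.4e-13). ANGPTL4, an inhibitor of lipoprotein lipase, went from 24.9 and 25.3 CPM to 332 and 369 CPM (log2 change 3.80, SE 0.15, adjusted p = 1.7e-09). The other genes of the 10 largest rises at that level were SYNPO2, GALNT15, IL1B and EPSTI1, with log2 changes of 5.57, 5.15, 4.83 and 3.71. SYNPO2, an actin-binding protein of muscle Z-discs, stands apart in that it reached 125 and 138 CPM from 2.97 and 2.60 CPM with doxycycline but 8.51 and 13.8 CPM from 2.27 and 1.80 CPM without it.

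Among genes with an average log2 CPM of at least 3, the 10 largest falls were all in genes of dividing cells. TROAP, a spindle protein, went from 41.0 and 40.8 CPM to 1.07 and 1.20 CPM (log2 change -5.17, SE 0.13, adjusted p = 2.2e-13). PLK1 (chr16:23678889-23690367), the kinase that drives mitotic entry, went from 106 and 105 CPM to 2.85 and 3.24 CPM (log2 change -5.12, SE 0.11, adjusted p = 9.8e-14). CDC20 (chr1:43358981-43363203), the activator of the anaphase-promoting complex, went from 172 and 151 CPM to 5.32 and 5.73 CPM (log2 change -4.87, SE 0.12, adjusted p = 2.1e-13). In each of them the senescent libraries kept a few percent of the proliferating level and the groups lay far apart. KIF20A, BIRC5, DLGAP5, PIMREG, KIF18B, UBE2C and DEPDC1 fell too, with log2 changes of -4.84, -4.75, -4.64, -4.60, -4.55, -4.25 and -4.24. Whether the counting used strand is not stated in the sources, and reads of genes whose spans overlap may be mixed. Overlaps were checked only for genes named by rule and for tested list members. Among those described in this report that applies to KIF20A, PIMREG, MCM2, BRCA1, MDM2, TP53I3, TMPO, NFKBIZ, PVR, FOXF2, ARHGEF17, MYOCD, COL3A1, FN1, LOX, GLB1, NPC1, CTSA, FDPS and IDI1, to PLAU and FLRT2, and to others where the overlap is named beside the value.

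**Figure D2:**
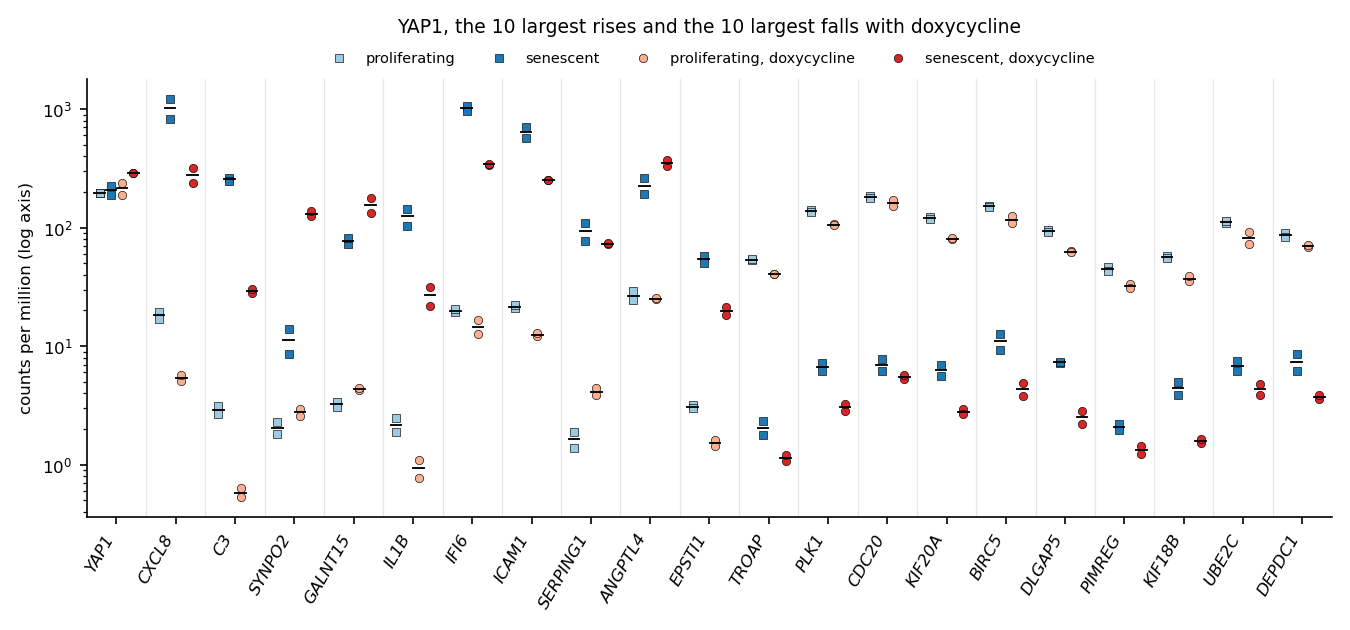
Level in CPM (log axis) of YAP1, of 10 leading rises and of 10 leading falls under doxycycline, in each of the 8 libraries, with a line at each group mean. The doxycycline groups do not overlap for any of these genes, and SYNPO2 reaches 125 and 138 CPM in the senescent libraries with doxycycline.

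Promoter sequence is shown for genes of the 5 groups that the results turn on. RefSeq windows on GRCh38.p14, of 250 bases before and 50 after each start site, were searched on both strands for short motifs, and a gene was counted if any of its windows held a match. The CHR element TTTGAA, through which mitotic genes are held down when the cycle stops, was in 14 of 24 mitotic genes with a window (58.3%) and in 18.2% of 27305 genes. The interferon response element, a pair of GAAA runs 2 bases apart, was in 21 of 31 interferon-stimulated genes (67.7%) and in 4.38% of all. The kappaB motif, GGG followed by TTTCC after 2 bases, was in 8 of 17 NF-kappaB pathway genes (47.1%), in 6 of 22 secreted factors (27.3%) and in 2.33% of all. The amino acid response motif TGATGNAA was in 7 of 21 ATF4 targets (33.3%) and in 4.46% of all, and the TEAD motif GGAATG in 9 of 16 YAP/TAZ-TEAD targets (56.2%) and in 16.7% of all. A match is a string of letters and no measurement of binding and no motif searched contains another. The 250 bases before the start are printed, and capitals mark the matches, 5′ to 3′ on the gene's strand, so that a match on the opposite strand reads as its reverse complement. The genes shown were picked from members with a match, so the matches in them are no finding.
PLK1 (chr16:23678639-23678888, plus strand): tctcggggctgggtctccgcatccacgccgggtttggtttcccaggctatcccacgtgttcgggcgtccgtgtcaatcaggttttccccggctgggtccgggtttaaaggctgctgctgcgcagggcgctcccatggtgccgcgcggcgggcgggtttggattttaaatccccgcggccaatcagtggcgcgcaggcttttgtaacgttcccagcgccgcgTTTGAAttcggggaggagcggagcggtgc
CDC20 (chr1:43358731-43358980, plus strand): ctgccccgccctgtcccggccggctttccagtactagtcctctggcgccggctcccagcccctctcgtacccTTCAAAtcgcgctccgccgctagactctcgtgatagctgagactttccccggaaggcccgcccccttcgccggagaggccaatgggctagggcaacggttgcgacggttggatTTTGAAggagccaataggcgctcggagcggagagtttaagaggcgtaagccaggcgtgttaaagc
IFI6 (chr1:27672193-27672442, minus strand): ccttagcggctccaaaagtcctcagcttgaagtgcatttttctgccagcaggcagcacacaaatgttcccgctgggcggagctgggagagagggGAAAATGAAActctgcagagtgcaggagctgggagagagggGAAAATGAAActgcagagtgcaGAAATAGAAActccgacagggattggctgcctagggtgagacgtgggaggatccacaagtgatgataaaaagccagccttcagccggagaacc
ISG15 (chr1:1013247-1013496, plus strand): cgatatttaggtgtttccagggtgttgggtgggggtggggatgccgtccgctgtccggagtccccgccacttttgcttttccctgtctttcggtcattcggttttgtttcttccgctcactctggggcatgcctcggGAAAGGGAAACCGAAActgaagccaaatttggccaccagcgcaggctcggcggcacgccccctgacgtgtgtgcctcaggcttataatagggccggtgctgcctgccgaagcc
IL6 (chr7:22726950-22727199, plus strand): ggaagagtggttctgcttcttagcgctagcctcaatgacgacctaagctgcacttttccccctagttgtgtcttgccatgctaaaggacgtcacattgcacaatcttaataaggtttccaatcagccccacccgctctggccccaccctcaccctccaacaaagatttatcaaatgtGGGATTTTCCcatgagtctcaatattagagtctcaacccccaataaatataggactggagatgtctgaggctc
CHAC1 (chr15:40953221-40953470, plus strand): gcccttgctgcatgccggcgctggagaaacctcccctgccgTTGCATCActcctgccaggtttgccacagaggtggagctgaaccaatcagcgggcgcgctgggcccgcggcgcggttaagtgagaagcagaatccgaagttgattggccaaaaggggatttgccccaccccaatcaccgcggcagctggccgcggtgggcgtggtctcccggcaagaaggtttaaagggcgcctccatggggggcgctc
ANKRD1 (chr10:90921088-90921337, minus strand): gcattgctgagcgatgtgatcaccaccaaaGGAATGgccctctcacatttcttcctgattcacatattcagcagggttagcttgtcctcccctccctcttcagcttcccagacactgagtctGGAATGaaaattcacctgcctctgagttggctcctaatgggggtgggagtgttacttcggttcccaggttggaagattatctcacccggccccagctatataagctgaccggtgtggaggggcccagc

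Every mitotic gene on the list fell. Of 30 tested, 0 rose and 30 fell, with a median log2 change of -3.58 against -0.0065 for all genes, and without doxycycline the counts were the same and the median -3.37. AURKB, the kinase of the chromosomal passenger complex, went from 50.1 and 44.1 CPM to 3.44 and 3.22 CPM (log2 change -3.82, SE 0.12, adjusted p = 8.7e-13). CCNB1, the cyclin partner of CDK1, went from 178 and 141 CPM to 14.3 and 14.5 CPM (log2 change -3.47, SE 0.11, adjusted p = 1.4e-12), and the centromeric histone gene CENPA went from 20.7 and 19.2 CPM to 1.22 and 0.699 CPM (log2 change -4.36). The smallest fall was that of ECT2, which directs cytokinesis, from 85.8 and 98.4 CPM to 50.7 and 46.6 CPM (log2 change -0.92, SE 0.097, adjusted p = 9.1e-07). The promoter windows of PLK1 and CDC20 above belong to the genes with the deepest falls of this list. The fall was deeper with doxycycline for 6 of the 30 and shallower for 0, among them PLK1 (difference -0.76, SE 0.15, adjusted p = 0.0019) and BIRC5 (difference -0.97, SE 0.20, adjusted p = 0.0037). MKI67, the proliferation antigen, was among them (difference -0.98, SE 0.21, adjusted p = 0.011), a call lost without proliferating replicate 2 or senescent replicate 1 with doxycycline. That count was 3 without senescent replicate 1 with doxycycline, 12 without senescent replicate 1 lacking it, and 3 with total counts only.

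Replication genes fell with them. Of 30 DNA replication genes 0 rose and 29 fell (median -2.37), with 1 rose and 29 fell without doxycycline (median -2.41). The difference was higher in 4 and lower in 4 of the 30, against 8.08% and 11.8% of all genes. The 6 subunits of the MCM helicase, which opens DNA at origins, all fell. MCM6 went from 78.4 and 72.2 CPM to 23.8 and 24.7 CPM (log2 change -1.63, SE 0.10, adjusted p = 2.1e-09), against 118 and 116 CPM to 16.4 and 20.9 CPM (log2 change -2.65, adjusted p = 7.8e-12) without doxycycline, and the difference was called (difference 1.02, SE 0.14, adjusted p = 1.6e-04). MCM2 had a difference of the same sign (difference 0.82, SE 0.14, adjusted p = 8.3e-04). TK1, thymidine kinase, and MCM10 fell by log2 changes of -3.52 and -3.50. RRM2, the small subunit of ribonucleotide reductase, had a difference of the other sign, going from 318 and 275 CPM to 23.2 and 26.6 CPM (log2 change -3.57, SE 0.13, adjusted p = 2.6e-11) against -2.72 without doxycycline (difference -0.85, SE 0.17, adjusted p = 0.0028). The exception among S-phase genes was CCNE1, which encodes cyclin E and stood at 9.09 and 8.88 CPM before and 8.20 and 9.09 CPM after bleomycin (adjusted p = 0.74), while without doxycycline it rose from 5.96 and 6.89 CPM to 12.6 and 10.9 CPM (log2 change 0.87, adjusted p = 2.9e-05). Genes of homologous recombination and of the Fanconi pathway, which repair broken and crosslinked DNA, fell in 14 of 15 cases (median -2.32, -2.22 without doxycycline). BRCA1 went from 26.4 and 29.5 CPM to 5.58 and 5.59 CPM (log2 change -2.32) and FANCD2 from 27.6 and 28.4 CPM to 3.36 and 3.78 CPM (log2 change -2.97), and the resection nuclease EXO1 had a log2 change of -3.02, while PALB2, at 13.5 and 13.7 and then 12.4 and 11.3 CPM, did not pass.

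The kinase inhibitors of the senescent state moved apart from each other. CDKN1A, which encodes p21, went from 406 and 349 CPM to 1138 and 1145 CPM (log2 change 1.597, SE 0.097, adjusted p = 1.7e-09). CDKN2B, which encodes p15, went from 4.59 and 4.64 CPM to 9.65 and 9.31 CPM (log2 change 1.04, SE 0.13, adjusted p = 4.9e-06). CDKN2A, which encodes p16 and ARF, stood at 47.0 and 38.0 CPM and then at 50.5 and 54.8 CPM (log2 change 0.31, adjusted p = 0.030), a call that was lost without proliferating replicate 2 or either senescent replicate. All 3 changed less than without doxycycline, where the log2 changes were 2.32, 2.16 and 1.33 (difference -0.73, SE 0.13, adjusted p = 0.0014 for CDKN1A, difference -1.12, SE 0.18, adjusted p = 4.9e-04 for CDKN2B and difference -1.02, SE 0.17, adjusted p = 6.5e-04 for CDKN2A). Proliferating cells held CDKN2A at 11.6 and 11.6 CPM without doxycycline, so its level was higher with doxycycline before any bleomycin. CDKN2C, the p18 inhibitor, went the opposite way from 36.4 and 36.1 CPM to 3.28 and 4.195 CPM (log2 change -3.28, SE 0.12, adjusted p = 3.9e-12). Of 9 inhibitors and pocket proteins 5 rose and 4 fell, and the rising count was 3 without either senescent replicate.

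Targets of p53 rose, and less than without doxycycline. Of 28 targets 19 rose and 3 fell (median 0.50), against 24 rose and 2 fell without doxycycline (median 0.82), and the difference was called lower in 14 and higher in 0. GDF15, a stress cytokine, went from 6.65 and 6.14 CPM to 31.1 and 26.4 CPM (log2 change 2.17, SE 0.15, adjusted p = 8.9e-08). RRM2B, the p53-induced reductase subunit, went from 37.6 and 43.1 CPM to 118 and 111 CPM (log2 change 1.502, SE 0.086, adjusted p = 9.0e-10). BTG2, an antiproliferative cofactor, rose from 6.15 and 5.15 CPM to 17.6 and 17.0 CPM (log2 change 1.62) against 2.29 and 2.98 CPM to 30.5 and 26.4 CPM (log2 change 3.43, adjusted p = 1.5e-11) without doxycycline (difference -1.81, SE 0.19, adjusted p = 1.7e-05). MDM2, the ubiquitin ligase that degrades p53, stood at 113 and 112 CPM before and 128 and 120.4 CPM after bleomycin (adjusted p = 0.18), where cells without doxycycline went from 91.5 and 92.0 CPM to 149 and 179 CPM (log2 change 0.84, adjusted p = 6.8e-07). SPATA18, which acts in mitochondrial quality control, rose by 1.09 with and 2.09 without doxycycline (difference -1.004, SE 0.18, adjusted p = 0.0011). TP53I3, BAX and FDXR fell, with log2 changes of -0.96, -0.51 and -0.50.

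All 16 genes of the nuclear lamina and chromatin list fell. LMNB1, which encodes lamin B1, went from 76.5 and 77.8 CPM to 4.76 and 4.98 CPM (log2 change -3.99, SE 0.12, adjusted p = 7.7e-13), and HMGB2, a chromatin protein of cycling cells, went from 173 and 149 CPM to 17.6 and 15.5 CPM (log2 change -3.28, SE 0.099, adjusted p = 7.9e-13). EZH2, the histone methyltransferase of the Polycomb complex, went from 30.7 and 29.3 CPM to 6.06 and 6.43 CPM (log2 change -2.27, SE 0.14, adjusted p = 5.6e-09). The 16 had a median of -1.91 with and -2.22 without doxycycline. TMPO and LBR, which tie chromatin to the lamina and the inner nuclear membrane, kept more of their level under doxycycline. LBR went from 84.7 and 94.1 CPM to 45.6 and 43.3 CPM (log2 change -1.01) with it but 90.4 and 88.4 CPM to 16.6 and 19.5 CPM (log2 change -2.31, adjusted p = 1.2e-11) without it (difference 1.30, SE 0.13, adjusted p = 6.8e-06), and TMPO had a difference of 0.75 (adjusted p = 5.9e-04). Of the list, 5 were higher and 2 lower in the difference, and the higher count was 2 without either proliferating replicate lacking doxycycline, without senescent replicate 1 lacking it or without senescent replicate 2 with it, and 3 without proliferating replicate 2 or senescent replicate 1 with doxycycline.

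**Figure D3:**
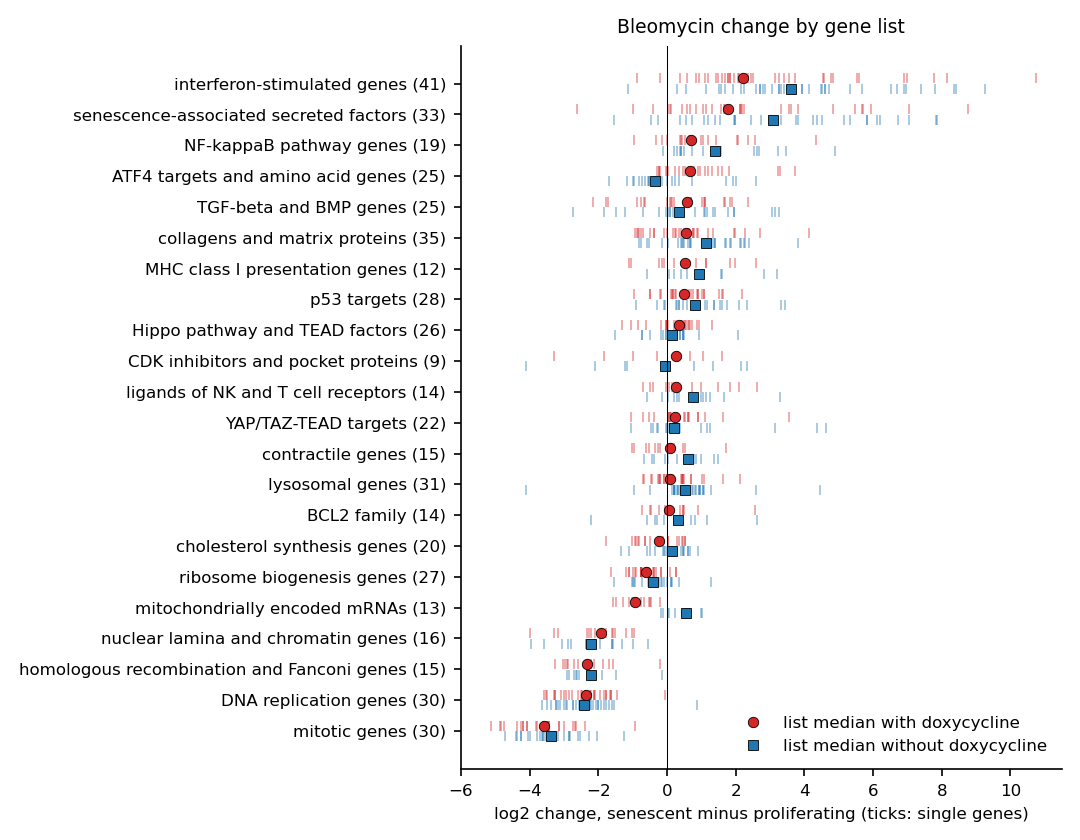
Median log2 change of senescent against proliferating cells for each gene list, with and without doxycycline, with ticks for single genes. Mitotic genes lie lowest at -3.58 with doxycycline, interferon-stimulated genes highest at 2.23, and the mitochondrial mRNAs and ATF4 targets have medians of opposite sign in the 2 conditions.

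Secreted factors rose in most cases, from low levels and with wide spread between the senescent replicates for several cytokines. Of 33 tested of 38 listed, 26 rose and 2 fell (median 1.77), with 30 rose and 2 fell without doxycycline (median 3.08). IL6, whose promoter window with its kappaB match is shown above, went from 6.62 and 5.73 CPM to 89.1 and 59.97 CPM (log2 change 3.60, SE 0.26, adjusted p = 4.0e-05). IL1A went from 0.265 and 0.437 CPM to 20.8 and 16.4 CPM (log2 change 5.69, SE 0.46, adjusted p = 1.2e-04) and CSF2, the growth factor of granulocytes and macrophages, from 0.0294 and 0.1699 CPM to 15.4 and 13.5 CPM (log2 change 7.04). In each of these cytokines the first senescent replicate was the higher one and both lay above every proliferating library. IL6 overlaps IL6-AS1. CCL20, a chemokine with 1 count in the 2 proliferating libraries, reached 7.51 and 6.99 CPM. The protease gene MMP12 went from 0.118 and 0.121 CPM to 7.87 and 7.33 CPM (log2 change 5.95, SE 0.28, adjusted p = 7.2e-11) and PLAT, the tissue plasminogen activator, from 483 and 473 CPM to 2187 and 2348 CPM (log2 change 2.25, SE 0.098, adjusted p = 3.4e-11). IGFBP3, a binding protein of insulin-like growth factors, went from 787 and 774 CPM to 8342 and 10130.0 CPM (log2 change 3.56, SE 0.13, adjusted p = 4.4e-12). CXCL12, a chemokine of the stroma, fell from 3.24 and 2.50 CPM to 0.458 and 0.475 CPM (log2 change -2.61), as did HGF from 68.1 and 72.9 CPM to 36.4 and 34.2 CPM (log2 change -0.998).

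Several secreted factors changed less under doxycycline, some of them from a higher level in dividing cells. The difference was lower in 15 of 33 and higher in 2. It was lower in only 1 of 7 cytokines and 3 of 8 chemokines. Among proteases and inhibitors it was lower in 6 of 10, and among growth factors and binding proteins in 5 of 8. In the other cytokines and chemokines it did not pass, so a smaller change was not shown for them. CXCL8 had a difference of -0.12 (adjusted p = 0.85), and that of IL1B did not pass either (adjusted p = 0.27). CCL2, which draws monocytes, went from 5.35 and 4.88 CPM to 14.7 and 15.7 CPM (log2 change 1.57) against 2.66 and 2.73 CPM to 40.0 and 35.8 CPM (log2 change 3.81, adjusted p = 6.8e-13) without doxycycline (difference -2.24, SE 0.16, adjusted p = 4.0e-07). MMP1, the interstitial collagenase, stood at 497 and 539 CPM and then 764 and 654 CPM, against 295 and 282 and then 2643 and 2000.1 CPM without doxycycline (difference -2.56, SE 0.17, adjusted p = 2.6e-07). MMP1 overlaps WTAPP1, and its rise with doxycycline (adjusted p = 0.0049) was lost without proliferating replicate 1 or senescent replicate 1. PLAU, the urokinase gene, was at 661 and 621 CPM and 731 and 633 CPM with doxycycline (adjusted p = 0.43) and went from 1053 and 1046 CPM to 2432 and 2342 CPM (log2 change 1.19, adjusted p = 2.7e-08) without it (difference -1.10, SE 0.13, adjusted p = 4.3e-05). SERPINB2, an inhibitor of urokinase, had started higher, going from 151 and 157 CPM to 339.6 and 341 CPM (log2 change 1.14) against 22.7 and 20.8 CPM to 465 and 359 CPM (log2 change 4.24, adjusted p = 2.7e-13) (difference -3.10, SE 0.15, adjusted p = 7.6e-09). CXCL1, a chemokine close to CXCL8, stayed low with doxycycline at 0.535 and 0.420 CPM in senescent cells against 4.84 and 4.32 CPM without it (difference -3.19, SE 0.74, adjusted p = 0.0072). VEGFA, the vascular growth factor, was 1 of the 2 with a larger rise under doxycycline, from 69.7 and 67.2 CPM to 296 and 301 CPM (log2 change 2.12, SE 0.097, adjusted p = 5.7e-11) against 1.54 (difference 0.58, SE 0.13, adjusted p = 0.0059).

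The NF-kappaB pathway rose in its subunits, feedback inhibitors and targets. Of 19 genes 15 rose and 1 fell (median 0.71), with 17 rose and 0 fell without doxycycline (median 1.41). NFKB2 went from 33.8 and 35.8 CPM to 72.2 and 71.9 CPM (log2 change 1.05, SE 0.077, adjusted p = 1.6e-08), and NFKBIZ, a nuclear cofactor, from 12.9 and 11.9 CPM to 52.1 and 52.0 CPM (log2 change 2.07, SE 0.086, adjusted p = 2.3e-11). TNFAIP3, the ubiquitin editor that shuts the pathway down, went from 5.18 and 5.44 CPM to 29.3 and 25.7 CPM (log2 change 2.37, SE 0.11, adjusted p = 7.8e-11). All 5 feedback inhibitors rose in both conditions. BIRC3, an inhibitor of apoptosis, rose from 5.06 and 5.85 CPM to 24.1 and 21.0 CPM (log2 change 2.04) with and from 6.54 and 6.11 CPM to 72.4 and 67.2 CPM (log2 change 3.46, adjusted p = 7.7e-13) without doxycycline (difference -1.42, SE 0.16, adjusted p = 2.0e-05). NFKBIA, which holds NF-kappaB in the cytoplasm, rose by 0.64 and 1.41 (difference -0.77, SE 0.13, adjusted p = 8.5e-04). The leukocyte adhesion receptor VCAM1 was at 0.412 and 0.995 CPM and then 0.866 and 0.280 CPM with doxycycline, groups that overlap (adjusted p = 0.66), and went from 9.45 and 11.4 CPM to 60.2 and 59.8 CPM (log2 change 2.53, adjusted p = 4.8e-05) without it. TRAF1, a signalling adaptor that overlaps PHF19, was the gene that fell (-0.95). The difference was lower for 11 of the 19 genes and higher for 1, which was CD83, a surface protein of activated immune cells (1.20), a call lost without proliferating replicate 2 or senescent replicate 2 lacking doxycycline or without senescent replicate 1 with it. The lower count was 7 without proliferating replicate 1 lacking doxycycline and 7 with total counts only.

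Interferon-stimulated genes formed the list with the highest median. Of 41 genes 38 rose and 1 fell (median 2.23), against 39 rose and 1 fell without doxycycline (median 3.62, or 3.40 with genes lacking counts set at their bound). OAS1 and MX2 had the largest fitted log2 changes among those that passed (8.15 and 7.78), from 0.0883 and 0.0243 CPM and from 0.0588 and 0.0243 CPM, which are few counts. OAS2, which makes an activator of RNase L, went from 0.118 and 0.267 CPM to 26.0 and 25.1 CPM (log2 change 6.98, SE 0.18, adjusted p = 2.2e-13), and MX1, a GTPase that blocks viruses, from 0.5002 and 0.704 CPM to 17.7 and 16.2 CPM (log2 change 4.79, SE 0.15, adjusted p = 1.4e-12). BST2, which tethers budding viruses, went from 0.235 and 0.194 CPM to 28.2 and 23.1 CPM (log2 change 6.89, SE 0.30, adjusted p = 2.0e-08). ISG15, the ubiquitin-like modifier, went from 20.7 and 19.1 CPM to 109.9 and 117 CPM (log2 change 2.51, SE 0.082, adjusted p = 1.5e-12), and its window above holds a pair of overlapping matches to the response element. For each of these both senescent libraries were well above both proliferating ones. Among sensors and signalling genes DDX58, which encodes the RNA sensor RIG-I, went from 19.8 and 18.8 CPM to 77.1 and 71.9 CPM (log2 change 1.95) and IRF9 from 20.3 and 19.3 CPM to 69.6 and 66.9 CPM (log2 change 1.79). CGAS, the DNA sensor, fell from 7.27 and 7.11 CPM to 4.13 and 3.78 CPM (log2 change -0.86, SE 0.15, adjusted p = 1.2e-04), as it did without doxycycline (-1.15). IFI27 had no counts in proliferating cells and stood at 11.3 and 0.196 CPM, so 1 library holds its signal and it did not pass.

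The interferon response was smaller under doxycycline in 25 of the 41 genes and larger in 0. MX1 reached 17.7 and 16.2 CPM with and 129.8 and 125 CPM without doxycycline (difference -2.18, SE 0.27, adjusted p = 5.9e-05), and ISG15 109.9 and 117 CPM and 252 and 244 CPM (difference -1.20, SE 0.11, adjusted p = 4.3e-06). In proliferating cells without doxycycline MX1 stood at 0.903 and 1.13 CPM and ISG15 at 18.8 and 19.1 CPM, so for ISG15 the dividing levels were alike with and without the drug and the senescent levels were not. IFIT1, an RNA-binding effector, differed at both ends, going from 42.2 and 39.1 CPM to 149 and 139 CPM (log2 change 1.83) with and from 16.2 and 17.5 CPM to 380.3 and 381 CPM (log2 change 4.5004, adjusted p = 1.1e-14) without doxycycline (difference -2.67, SE 0.12, adjusted p = 2.6e-09), and its reads are uncertain because it overlaps LIPA. OAS3 had a difference of -1.63 (adjusted p = 3.8e-07). Among 10 sensors and signalling genes the difference was lower in 5, and among 31 effectors in 20.

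Antigen presentation genes passed as rises in the chains of MHC class I, while no gene of peptide supply did. All 5 heavy and light chain genes tested rose, HLA-B from 55.0 and 64.7 CPM to 310.4 and 413 CPM (log2 change 2.59, SE 0.15, adjusted p = 1.4e-07) and B2M, the shared light chain, from 96.1 and 83.4 CPM to 172 and 148 CPM (log2 change 0.84, SE 0.091, adjusted p = 1.4e-06). Of 6 genes of peptide supply tested, out of 8 listed, 0 rose and 2 fell (median -0.12). Their largest fitted change, 1.98, did not pass. ERAP2, which trims peptides in the endoplasmic reticulum, fell from 69.0 and 66.4 CPM to 30.9 and 32.6 CPM (log2 change -1.09, SE 0.076, adjusted p = 8.7e-09) but went from 81.6 and 81.2 CPM to 123 and 122 CPM (log2 change 0.59, adjusted p = 4.7e-06) without doxycycline (difference -1.68, SE 0.11, adjusted p = 1.2e-07), with its span overlapping ERAP1. PSMB10, of the immunoproteasome, was the other that fell (-1.04), and PSMB9 and HLA-F had no counts in these 4 libraries. The cause of these missing counts was not tested. The difference was lower in 6 of 12 genes, in 3 without proliferating replicate 1 lacking doxycycline or senescent replicate 1 with it, and in 3 with total counts only. For 14 genes that encode ligands of receptors on NK and T cells, 7 rose and 2 fell. PVR went from 157 and 170.5 CPM to 318 and 333 CPM (log2 change 0.99, SE 0.078, adjusted p = 3.6e-08), ULBP2 from 26.2 and 20.8 CPM to 38.7 and 38.8 CPM (log2 change 0.73), and the checkpoint ligand CD274, which encodes PD-L1, from 29.0 and 27.1 CPM to 80.4 and 77.1 CPM (log2 change 1.49, SE 0.083, adjusted p = 6.5e-10). ULBP1, at 0.324 and 0.461 CPM and then 2.65 and 2.29 CPM, and LGALS9, galectin-9, rose from low levels (2.63 and 2.11). CD274 rose by 1.65 without doxycycline and the difference did not pass (-0.16, adjusted p = 0.36), while ULBP3 fell in both (-0.71 and -0.59).

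Targets of YAP and TEAD moved both ways when bleomycin was added to active YAP. Of 22 targets 11 rose and 4 fell (median 0.24), with 10 rose and 5 fell without doxycycline (median 0.20). Among all genes 26.8% rose and 28.7% fell with doxycycline, so the falling share of the targets was not above that of all genes. CCN2, a matricellular protein, went from 843 and 803 CPM to 1801 and 1777 CPM (log2 change 1.12, SE 0.087, adjusted p = 2.8e-08). Without doxycycline it went from 784 and 786 CPM to 872 and 799.6 CPM (log2 change 0.090, adjusted p = 0.39), and the difference was called (difference 1.03, SE 0.12, adjusted p = 3.9e-05). The 4 proliferating libraries of CCN2 lay close together, and the senescent ones with doxycycline stood far above all others. CCN1 went from 759 and 715 CPM to 1048 and 1078 CPM (log2 change 0.53, SE 0.089, adjusted p = 1.1e-04) and LATS2, the kinase that restrains YAP, from 154 and 174 CPM to 244 and 259 CPM (log2 change 0.62, SE 0.080, adjusted p = 7.7e-06). ANKRD1, a cardiac ankyrin repeat protein whose window above holds 2 TEAD motifs, went from 277 and 266 CPM to 851 and 822 CPM (log2 change 1.62, SE 0.11, adjusted p = 9.0e-09). It started from 3.08 and 3.68 CPM without doxycycline and reached 94.6 and 71.7 CPM, so the proliferating libraries with doxycycline already exceeded the senescent ones without it (difference -2.997, SE 0.18, adjusted p = 9.6e-08). TGFB2 showed the same order, from 123 and 152 CPM to 197 and 222 CPM (log2 change 0.60) with and from 6.86 and 7.84 CPM to 65.6 and 64.3 CPM (log2 change 3.14, adjusted p = 5.6e-12) without doxycycline (difference -2.54, SE 0.15, adjusted p = 9.6e-08), and it overlaps TGFB2-AS1. AXL, a receptor kinase, was at 832 and 816 CPM and 967 and 1037 CPM with doxycycline and fell from 698 and 682 CPM to 504 and 488 CPM (log2 change -0.48, adjusted p = 1.3e-04) without it (difference 0.76, SE 0.12, adjusted p = 3.7e-04). FOXF2, ARHGEF17, MYOF and FJX1 fell, with log2 changes of -1.03, -0.53, -0.70 and -0.38.

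Within the Hippo pathway the kinases and adaptors rose together with TEAD1. Of 26 genes 14 rose and 3 fell (median 0.34), including 6 of 8 kinases and adaptors. TEAD1 went from 183 and 225 CPM to 294 and 309.6 CPM (log2 change 0.56, SE 0.10, adjusted p = 2.7e-04), VGLL3, a TEAD cofactor, from 91.8 and 126 CPM to 259 and 283 CPM (log2 change 1.31, SE 0.13, adjusted p = 5.6e-06), STK4, the MST1 kinase, from 48.3 and 53.1 CPM to 82.0 and 85.3 CPM (log2 change 0.72, SE 0.079, adjusted p = 1.4e-06), and its scaffold SAV1 from 46.0 and 45.7 CPM to 76.4 and 69.4 CPM (log2 change 0.67, SE 0.083, adjusted p = 5.7e-06). All 4 had both senescent libraries above both proliferating ones. TEAD2, TEAD4 and the cadherin DCHS1 (-1.05) fell, TEAD2 from 26.3 and 26.7 CPM to 10.5 and 10.96 CPM (log2 change -1.31) and TEAD4 from 20.5 and 20.3 CPM to 11.8 and 10.9 CPM (log2 change -0.84). Without doxycycline TEAD1 and SAV1 did not pass (0.084 and 0.18). AJUBA, which binds LATS, was at 135 and 138 CPM and 135 and 132 CPM with doxycycline but fell from 89.3 and 89.5 CPM to 52.8 and 54.4 CPM (log2 change -0.74, adjusted p = 3.9e-07) without it (difference 0.71, SE 0.10, adjusted p = 2.2e-04). The scaffold WWC1 had the reverse sign of difference, rising by 0.95 with and 2.07 without doxycycline (difference -1.13, SE 0.17, adjusted p = 3.7e-04). The difference was higher for 7 and lower for 3 of the 26. The higher count was 3 without either proliferating replicate lacking doxycycline or without senescent replicate 1 with it, 4 without senescent replicate 2 with it, and 11 with total counts only.

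Growth factors of the TGF-beta family and their antagonists both moved. Of 25 genes 13 rose and 7 fell (median 0.57), against 26.8% and 28.7% of all genes, so the falling share was close to that of all genes. INHBA, which encodes the activin A chain, went from 55.0 and 76.1 CPM to 227 and 239 CPM (log2 change 1.83, SE 0.12, adjusted p = 1.2e-08), and BMP2 from 9.68 and 12.8 CPM to 59.5 and 56.1 CPM (log2 change 2.35, SE 0.18, adjusted p = 3.7e-06). FST, the secreted antagonist of activin, fell from 420.0 and 396 CPM to 125 and 123 CPM (log2 change -1.72, SE 0.079, adjusted p = 6.1e-11). It was at 31.6 and 34.9 CPM in proliferating and 32.2 and 33.1 CPM in senescent cells without doxycycline, and in both groups without the drug it was under the lowest level seen with it (difference -1.69, SE 0.11, adjusted p = 2.0e-07). SMAD6, an intracellular inhibitor of BMP signals, fell by a log2 change of -2.14. BAMBI, a decoy receptor, rose from 18.9 and 17.4 CPM to 60.6 and 56.6 CPM (log2 change 1.69, SE 0.094, adjusted p = 6.2e-10). The receptor TGFBR2 rose from 293 and 318 CPM to 645 and 674 CPM (log2 change 1.11), and the target TGFBI from 2075 and 2081 CPM to 7358 and 8145 CPM (log2 change 1.90). ID1, a target of BMP signalling, fell from 72.9 and 72.9 CPM to 21.6 and 20.8 CPM (log2 change -1.78, SE 0.12, adjusted p = 8.6e-09), less than without doxycycline (-2.74, difference 0.96, SE 0.18, adjusted p = 0.0015). BMP4 was at 7.27 and 7.04 and 7.44 and 6.74 CPM with doxycycline and rose from 7.18 and 7.49 CPM to 18.8 and 18.3 CPM (log2 change 1.34, adjusted p = 6.1e-08) without it (difference -1.35, SE 0.16, adjusted p = 4.7e-05). The difference was higher in 7 and lower in 11 of the 25, against 8.08% and 11.8% of all genes. The lower count was 7 without proliferating replicate 1 lacking doxycycline, without proliferating replicate 2 or senescent replicate 1 with it, and with total counts only.

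Contractile genes fell or did not pass in most cases with doxycycline. Of 15 tested 3 rose and 6 fell (median 0.095), against 10 rose and 3 fell without doxycycline (median 0.62). ACTA2, smooth muscle actin and the usual marker of myofibroblasts, was at 152 and 132 CPM and then 142 and 169 CPM (adjusted p = 0.26). The groups overlapped, while without doxycycline it went from 234 and 245 CPM to 617 and 615 CPM (log2 change 1.36, adjusted p = 7.6e-09) (difference -1.23, SE 0.14, adjusted p = 2.1e-05). ACTA2 overlaps FAS. CNN1, calponin, stood at 43.6 and 43.3 CPM and then 35.3 and 37.2 CPM with doxycycline, a fall whose call (adjusted p = 0.022) was lost without either senescent replicate, and it rose from 56.8 and 56.6 CPM to 106 and 88.1 CPM (log2 change 0.77, adjusted p = 1.8e-06) without it (difference -1.04, SE 0.13, adjusted p = 5.2e-05). MYOCD, the coactivator of serum response factor, was an exception and rose from 7.83 and 9.005 CPM to 29.7 and 25.6 CPM (log2 change 1.71, SE 0.12, adjusted p = 7.1e-09), as did the actin-binding CALD1 from 825 and 863 CPM to 1109 and 1332 CPM (log2 change 0.53). FLNA, filamin A, fell from 1662 and 2204 CPM to 859 and 1068 CPM (log2 change -1.004, SE 0.13, adjusted p = 1.7e-05), and SMTN, smoothelin, from 187 and 204 CPM to 95.4 and 105 CPM (log2 change -0.96). The difference was lower in 9 of the 15 and higher in 0, with a lower count of 5 without senescent replicate 1 with doxycycline.

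Matrix genes split by class. Of 35 tested 22 rose and 8 fell (median 0.55), with 27 rose and 4 fell without doxycycline (median 1.13). The falling share with doxycycline was below the 28.7% of all genes, of which 26.8% rose. Among 6 fibrillar collagens 4 fell and 2 rose. COL1A1 went from 6544 and 7328 CPM to 3249 and 4281 CPM (log2 change -0.88, SE 0.12, adjusted p = 1.8e-05) and COL3A1 from 526 and 565 CPM to 248 and 320.4 CPM (log2 change -0.94, SE 0.11, adjusted p = 5.0e-06), with senescent replicate 1 the lowest of the 4 libraries for both. Without doxycycline neither passed (0.035 and -0.13). COL6A3 fell from 2248 and 2698 CPM to 1324 and 1629 CPM (log2 change -0.74), whereas COL6A1 and COL6A2 rose by 0.63 and 0.55. FN1, fibronectin, went from 1902 and 2266 CPM to 9038 and 11266 CPM (log2 change 2.28, SE 0.13, adjusted p = 7.9e-10) and the crosslinking enzyme LOX from 1013 and 1112 CPM to 3747 and 4539 CPM (log2 change 1.96, SE 0.11, adjusted p = 4.3e-10). Both were well above every proliferating library. COL11A1, a minor fibrillar collagen, went from 0.441 and 0.704 CPM to 8.12 and 12.4 CPM (log2 change 4.13, SE 0.31, adjusted p = 2.4e-08), with 0.392 and 0.395 CPM in senescent cells without doxycycline (difference 2.74, SE 0.64, adjusted p = 0.0075, a call lost without proliferating replicate 1 lacking doxycycline). MFAP5, a microfibril protein, went from 12.7 and 13.4 CPM to 76.6 and 94.95 CPM (log2 change 2.72, SE 0.13, adjusted p = 1.3e-09) with doxycycline, and over the libraries without it there were 0 counts in proliferating and 3 in senescent cells.

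The small proteoglycans and the tenascin of the matrix included genes with large differences from the change without doxycycline. LUM, lumican, rose from 53.2 and 49.4 CPM to 210.1 and 195 CPM (log2 change 1.98, SE 0.079, adjusted p = 1.2e-11) with and 0.68 without it (difference 1.31, SE 0.11, adjusted p = 1.5e-06). DCN, decorin, rose from 302 and 274 CPM to 529 and 559 CPM (log2 change 0.92) but fell from 665 and 694 CPM to 444 and 472 CPM (log2 change -0.57, adjusted p = 3.1e-05) (difference 1.49, SE 0.12, adjusted p = 1.0e-06). TNC, tenascin-C, was at 81.7 and 102 CPM and 80.9 and 92.0 CPM with doxycycline, in overlapping groups, and rose from 152 and 159.8 CPM to 637 and 717 CPM (log2 change 2.12, adjusted p = 2.0e-10) without it (difference -2.20, SE 0.15, adjusted p = 2.6e-07). POSTN, periostin, was at 0.324 and 0.922 CPM and then 0.458 and 0.531 CPM and had a difference of -2.53 (adjusted p = 0.0030), a call lost without proliferating replicate 2 with doxycycline. COL8A1 rose by 0.87 and 2.25 (difference -1.39, SE 0.12, adjusted p = 2.2e-06). In the difference 4 were higher and 17 lower of 35.

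Lysosomal genes changed little or less with doxycycline than without it. Of 31 tested 12 rose and 7 fell (median 0.075), against 24 rose and 2 fell without (median 0.52), and the difference was lower in 17 and higher in 0. Among all genes 26.8% rose and 28.7% fell with doxycycline. FUCA1, a fucosidase, went from 3.62 and 3.45 CPM to 15.4 and 15.3 CPM (log2 change 2.12, SE 0.15, adjusted p = 8.0e-09) with doxycycline and from 0.171 and 0.200 CPM to 4.2005 and 4.01 CPM without it (difference -2.33, SE 0.29, adjusted p = 5.8e-05). GLB1, the galactosidase whose activity marks senescent cells, went from 68.5 and 66.1 CPM to 89.6 and 94.8 CPM (log2 change 0.45, SE 0.078, adjusted p = 1.4e-04). GAA, which digests lysosomal glycogen, went from 18.6 and 21.9 CPM to 39.4 and 43.3 CPM (log2 change 1.03, SE 0.099, adjusted p = 3.4e-07), and NPC1, which exports cholesterol, from 31.6 and 36.5 CPM to 59.1 and 52.4 CPM (log2 change 0.71, SE 0.092, adjusted p = 8.7e-06). For these genes both senescent libraries were above both proliferating ones. CTSK, a collagen-degrading cathepsin, moved in opposite directions, from 20.1 and 19.2 CPM to 12.7 and 11.4 CPM (log2 change -0.70, SE 0.095, adjusted p = 1.2e-05) with and from 21.5 and 21.8 CPM to 54.9 and 51.3 CPM (log2 change 1.29, adjusted p = 5.7e-09) without doxycycline (difference -1.99, SE 0.13, adjusted p = 1.6e-07). CTSA and CTSZ did not pass with doxycycline (0.0022 and 0.075) and rose without it (0.74 and 0.95), with differences of -0.74 and -0.87 (adjusted p = 5.8e-04 and 3.5e-04).

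Mitochondrially encoded mRNAs, the 13 transcripts for subunits of the respiratory chain, fell together under doxycycline. Of the 13, 0 rose and 12 fell (median -0.92), whereas 8 rose and 0 fell without doxycycline (median 0.55), and the difference was lower for all 13. COX1, a core subunit of cytochrome oxidase, went from 13546 and 13426 CPM to 5729 and 5350.2 CPM (log2 change -1.28, SE 0.098, adjusted p = 2.5e-08). Without doxycycline COX1 was at 12133 and 12452 CPM and 12752 and 12429 CPM (difference -1.32, SE 0.14, adjusted p = 1.2e-05). COX2 and COX3 had the deepest falls of the list (-1.47 and -1.57), and the largest differences were those of ND3 and ND2 (-1.53 and -1.51). ND5, a subunit of complex I, went from 3407 and 3619.6 CPM to 2719.5 and 2416 CPM (log2 change -0.45, SE 0.10, adjusted p = 0.0013) but rose from 3101 and 3212 CPM to 6769.6 and 5985 CPM (log2 change 1.01, adjusted p = 4.4e-07) without doxycycline (difference -1.47, SE 0.14, adjusted p = 6.6e-06). ND4L, at 529 and 654 CPM and then 529 and 493 CPM, was the one that did not pass (adjusted p = 0.088). ND4 with ND4L, and ATP6 with ATP8 and COX3, overlap on the mitochondrial genome, so their counts are not separate. Nuclear genes of ribosome assembly also fell, in 23 of 27 cases (median -0.60, -0.40 without doxycycline), with 1 rise. NOP58, of the box C/D particles that guide rRNA methylation, went from 81.3 and 81.5 CPM to 43.4 and 41.4 CPM (log2 change -0.94, SE 0.081, adjusted p = 1.0e-07) against -0.30 without doxycycline (difference -0.64, SE 0.11, adjusted p = 0.0012), and RRP9 from 32.5 and 27.7 CPM to 10.4 and 9.23 CPM (log2 change -1.62). NCL, nucleolin, went from 673 and 703 CPM to 423 and 396 CPM (log2 change -0.75) and did not pass without doxycycline (-0.084, difference -0.67, SE 0.12, adjusted p = 0.0013). The difference for these was lower in 10 of 27, in 5 and 4 without proliferating replicates 1 and 2 lacking doxycycline, in 6 without either senescent replicate with it and in 4 with total counts only.

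ATF4 targets and amino acid genes had a median of opposite sign to that in cells without doxycycline, and 7 of them were called in opposite directions. ATF4 is the transcription factor of the integrated stress response, and its targets supply serine, asparagine and glutathione precursors and import amino acids. Of 25 genes 18 rose and 4 fell with doxycycline (median 0.68) but 7 rose and 14 fell without (median -0.35), and the difference was higher in 20 and lower in 2. ATF4 itself went from 264 and 241 CPM to 359.6 and 337 CPM (log2 change 0.47, SE 0.081, adjusted p = 1.5e-04). Without doxycycline it fell from 316 and 321 CPM to 220.4 and 215 CPM (log2 change -0.55, adjusted p = 2.5e-05) (difference 1.02, SE 0.11, adjusted p = 2.5e-05). Among synthesis enzymes PSAT1, of the serine pathway, rose from 49.6 and 46.2 CPM to 126 and 113 CPM (log2 change 1.31) with and fell from 62.7 and 64.8 CPM to 41.6 and 40.6 CPM (log2 change -0.63, adjusted p = 7.1e-06) without doxycycline (difference 1.95, SE 0.12, adjusted p = 8.4e-08). MTHFD2, of mitochondrial folate metabolism, rose from 87.1 and 82.7 CPM to 149 and 142 CPM (log2 change 0.78) and fell from 106 and 108 CPM to 84.9 and 82.9 CPM (log2 change -0.35, adjusted p = 8.2e-04) (difference 1.12, SE 0.10, adjusted p = 4.2e-06), and its span overlaps SLC4A5. Both genes had groups that did not overlap in either condition. PHGDH, the entry enzyme of the serine pathway, was at 38.7 and 35.0 CPM and 30.8 and 33.0 CPM with doxycycline and fell from 64.5 and 63.7 CPM to 19.7 and 19.9 CPM (log2 change -1.69, adjusted p = 1.9e-10) without it (difference 1.49, SE 0.12, adjusted p = 1.1e-06).

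Transporters and stress effectors of the ATF4 list also had higher differences. SLC7A5, the light chain of the large neutral amino acid transporter, went from 558 and 635 CPM to 1666 and 1705 CPM (log2 change 1.498, SE 0.092, adjusted p = 1.9e-09), and in cells without doxycycline it went from 188 and 186 CPM to 233 and 211 CPM (log2 change 0.24, adjusted p = 0.030) (difference 1.25, SE 0.13, adjusted p = 1.0e-05). SLC3A2, its heavy chain, had log2 changes of 0.34 with and -0.53 without doxycycline (difference 0.88, SE 0.11, adjusted p = 5.0e-05). All 6 transporters had a higher difference. CHAC1, which degrades glutathione and whose window above holds the amino acid response motif, went from 29.4 and 27.4 CPM to 42.6 and 38.8 CPM (log2 change 0.52, SE 0.093, adjusted p = 2.1e-04) against -0.83 without doxycycline (difference 1.35, SE 0.13, adjusted p = 6.6e-06). TRIB3, a pseudokinase, went from 19.5 and 18.4 CPM to 49.7 and 37.8 CPM (log2 change 1.21, SE 0.12, adjusted p = 5.4e-07) and DDIT4, an inhibitor of mTORC1, from 20.4 and 16.4 CPM to 71.3 and 57.9 CPM (log2 change 1.81, SE 0.13, adjusted p = 7.4e-08). Without doxycycline DDIT4 stood at 62.8 and 62.2 CPM in proliferating and 59.1 and 48.8 CPM in senescent cells. Its dividing level was thus lower with doxycycline, while the senescent levels overlapped. The senescent libraries with doxycycline were the highest of all for SLC7A5, SLC3A2, TRIB3 and VLDLR, as the plot of this list shows. VLDLR, a lipoprotein receptor, went from 1.91 and 1.92 CPM to 22.5 and 28.8 CPM (log2 change 3.74, SE 0.16, adjusted p = 2.7e-11) (difference 2.01, SE 0.22, adjusted p = 2.1e-05). ATF3, a stress-induced partner of these factors, rose from 3.85 and 3.98 CPM to 42.3 and 31.6 CPM (log2 change 3.24). ASNS, asparagine synthetase, went from 0.0883 and 0.218 CPM to 1.91 and 1.23 CPM, and so few counts were recorded for it in every library that its values are uncertain.

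**Figure D4:**
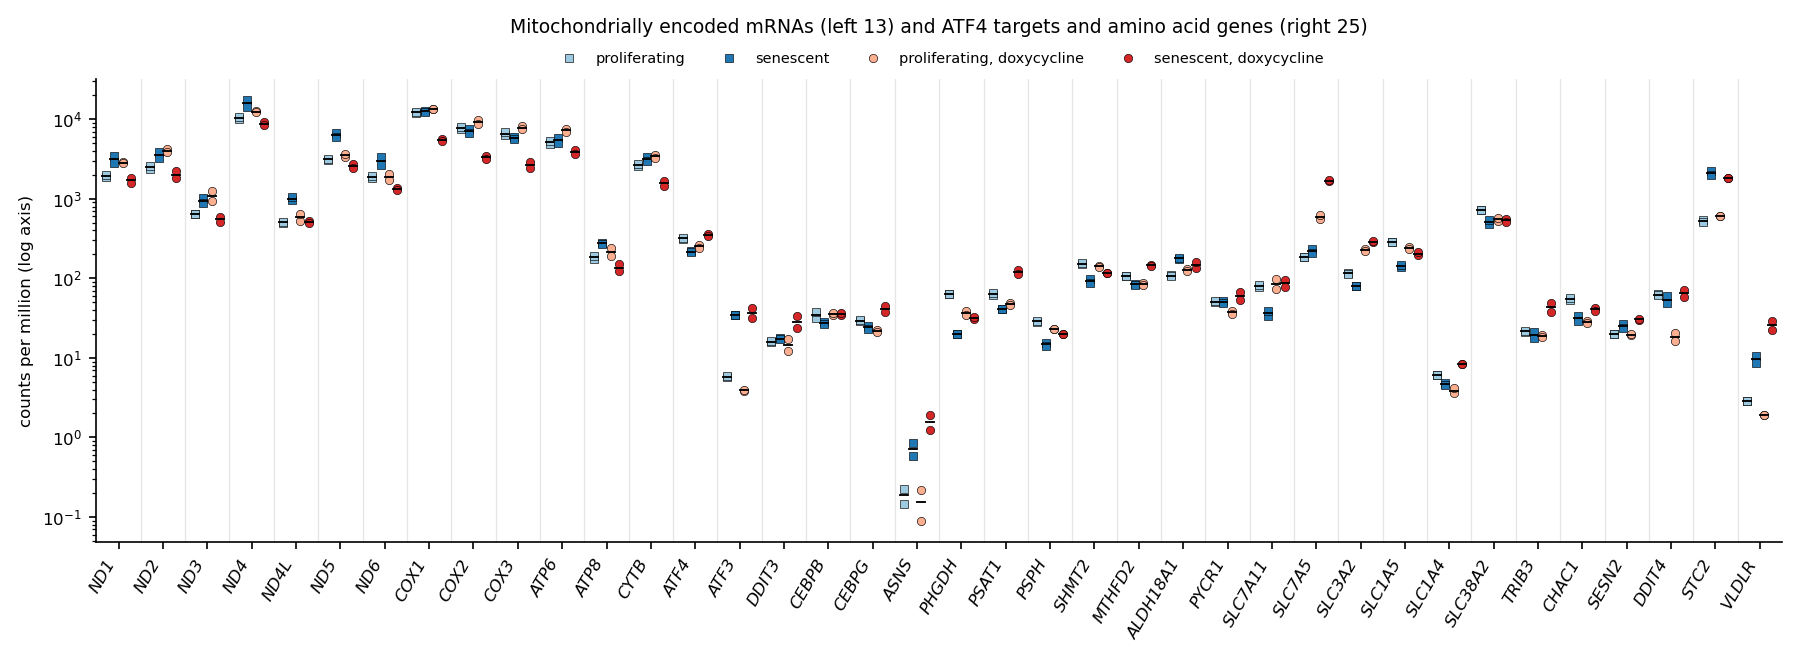
Level in CPM (log axis) of the 13 mitochondrially encoded mRNAs and the 25 ATF4 targets and amino acid genes in each of the 8 libraries, with a line at each group mean. The mitochondrial mRNAs are lower in senescent cells with doxycycline for 12 of 13 by the test, and 18 of the 25 genes on the right are higher.

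Cholesterol and survival genes showed smaller and mixed changes. Of 20 cholesterol genes 6 rose and 10 fell (median -0.24), with 7 rose and 4 fell without doxycycline. FDPS, of the isoprenoid branch, fell from 136 and 117 CPM to 70.6 and 73.6 CPM (log2 change -0.81, SE 0.084, adjusted p = 7.0e-07). PMVK, of the mevalonate pathway, fell from 26.9 and 21.6 CPM to 12.2 and 11.7 CPM (log2 change -1.02) and did not pass without doxycycline (-0.085, difference -0.93, SE 0.15, adjusted p = 4.8e-04). IDI1 had a log2 change of -0.64 with doxycycline and did not pass without it (0.13, difference -0.78, SE 0.11, adjusted p = 2.3e-04). The difference was lower in 6 of 20, and in 3 without proliferating replicate 1 lacking doxycycline. In the BCL2 family 6 rose and 2 fell of 14 (median 0.068), against 26.8% and 28.7% of all genes. BCL2L1, which encodes the survival protein BCL-XL, went from 171 and 182 CPM to 250.3 and 249.7 CPM (log2 change 0.50, SE 0.076, adjusted p = 4.1e-05), and BCL2L2 from 40.5 and 38.5 CPM to 53.5 and 55.5 CPM (log2 change 0.46, SE 0.079, adjusted p = 1.2e-04), less than without doxycycline (1.18, difference -0.71, SE 0.11, adjusted p = 4.1e-04). The rising count of this family was 3 without proliferating replicate 2 or either senescent replicate. MCL1, at 233 and 241 and 255 and 241 CPM, did not pass. KRT18 and KRT8, keratins counted here as epithelial markers that overlap each other in the annotation, rose from 394 and 389 CPM to 497 and 462 CPM (log2 change 0.29) and from 91.6 and 88.7 CPM to 133 and 117 CPM (log2 change 0.47), with log2 changes of -0.91 and -0.33 without doxycycline (difference 1.20, SE 0.11, adjusted p = 3.9e-06 for KRT18).

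Among genes with an average log2 CPM of at least 3, most of the 8 lowest differences belonged to genes whose level in dividing cells was already higher with doxycycline than without it. BMPER (chr7:33904915-34156427), a secreted modulator of BMP, went from 37.5 and 35.6 CPM to 45.8 and 48.7 CPM (log2 change 0.37) with and from 0.659 and 0.601 CPM to 15.5 and 18.1 CPM (log2 change 4.73, adjusted p = 7.8e-13) without doxycycline (difference -4.36, SE 0.18, adjusted p = 2.6e-09). PAPPA (chr9:116153791-116402321), a protease that frees insulin-like growth factors, went from 93.9 and 121 CPM to 177 and 219.9 CPM (log2 change 0.89) and from 5.74 and 6.19 CPM to 197 and 232 CPM (log2 change 5.17, adjusted p = 6.1e-10) (difference -4.28, SE 0.21, adjusted p = 5.8e-07), and PAPPA-AS1 lies within its span with a difference of -4.28. LCE2A and H2BC4 did not pass with doxycycline (0.13 and 0.013) and rose without it (3.05 and 2.75). For BMPER, PAPPA, LCE2A and H2BC4 the proliferating libraries with doxycycline were above those without it, H2BC4 for example at 14.9 and 11.7 against 2.73 and 2.43 CPM. Reads over the gene of the mitochondrial proline tRNA, TRNP, differed at the other end. They stood at 57.9 and 49.1 CPM in senescent cells with and 354 and 233 CPM without doxycycline (difference -2.84, SE 0.27, adjusted p = 6.4e-04). The libraries are of poly(A) RNA and strand use is not stated, so these reads may not measure the tRNA itself.

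The 8 highest differences at that level were in genes that rose more, rose where they otherwise fell, or fell less with doxycycline. MIR193BHG, a microRNA host transcript, went from 9.27 and 9.61 CPM to 49.9 and 37.3 CPM (log2 change 2.21, SE 0.13, adjusted p = 1.7e-09) and did not pass without doxycycline (-0.11, difference 2.32, SE 0.19, adjusted p = 1.4e-06). PCK2, the mitochondrial phosphoenolpyruvate carboxykinase, rose from 13.3 and 11.53 CPM to 33.8 and 28.3 CPM (log2 change 1.33) with and fell from 22.1 and 23.3 CPM to 14.7 and 12.8 CPM (log2 change -0.72, adjusted p = 5.6e-05) without doxycycline (difference 2.05, SE 0.16, adjusted p = 8.2e-07). ZNF431, a zinc finger gene, rose from 23.1 and 23.5 CPM to 60.5 and 74.1 CPM (log2 change 1.53) against -0.43 without doxycycline (difference 1.97, SE 0.15, adjusted p = 7.5e-07). SYNPO2 had the highest of these values (difference 3.12, SE 0.35, adjusted p = 4.7e-04). H1-10, a linker histone, had log2 changes of -0.41 with and -2.19 without doxycycline (difference 1.78, SE 0.14, adjusted p = 9.4e-07), and it overlaps H1-10-AS1. FLRT2, an adhesion protein, was at 68.6 and 72.6 CPM and 83.7 and 83.6 CPM with doxycycline, while without it the level fell from 36.6 and 35.5 CPM to 13.2 and 12.7 CPM (log2 change -1.48, adjusted p = 5.8e-10) (difference 1.72, SE 0.11, adjusted p = 1.6e-07).

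**Figure D5:**
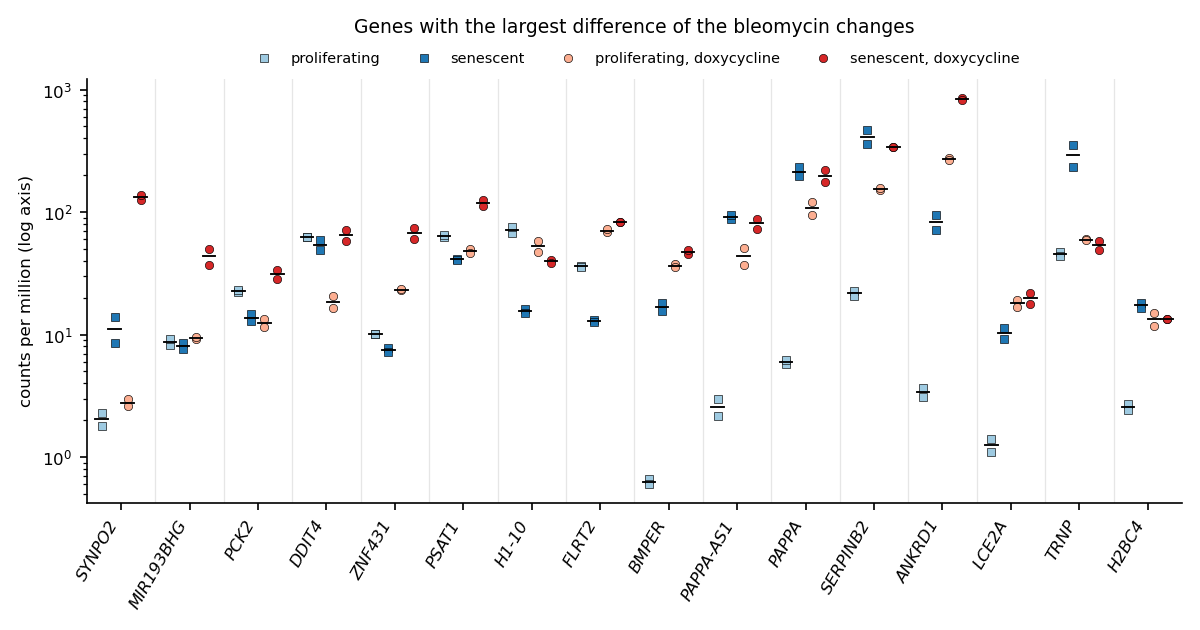
Level in CPM (log axis) of the 8 genes with the highest and the 8 with the lowest difference of the bleomycin changes, among genes whose average log2 CPM reached 3, in each of the 8 libraries, with a line at each group mean. BMPER stands at 0.659 and 0.601 CPM in proliferating cells without doxycycline and at 37.5 and 35.6 CPM with it.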

How the data were processed

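RNA from 8 samples in 4 groups of 2 was sequenced as poly(A) libraries (TruSeq Stranded mRNA LT, Illumina NovaSeq), from RNA with an integrity number above 7.0, per the labels' protocols. The authors deposited raw read counts per gene. Trimmomatic 0.36, HISAT2 2.1.0, featureCounts 1.6.3 and the build hg38 are named in the submitters' processing notes, with no settings, annotation or strand use stated there. Genes with enough counts by edgeR's filterByExpr were kept, 17155 of 54628. The counts were scaled by TMM factors and fitted with edgeR 4.0.16 in R 4.3.3, as a robust quasi-likelihood model over all 8 libraries by group. The 4 groups thus share 1 estimate of the spread on 4 residual degrees of freedom, with a median of 11.2 prior degrees of freedom from other genes. Replicates did not spread alike. Their chi-square per degree of freedom was 3.4 in proliferating and 14.4 in senescent cells without doxycycline. With doxycycline it was 17.8 in proliferating and 11.5 in senescent cells. Contrasts were tested, two-sided with Benjamini-Hochberg adjustment over all genes at 0.05: bleomycin with doxycycline, bleomycin without it, and the difference of both changes. Standard errors were derived from the fitted change and its F statistic. A prior count of 2 was used for the log2 CPM values and not for the fitted changes.

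The members and gene lists were chosen with earlier results of these data known. The text names YAP1, the 10 largest rises and 10 largest falls that did not overlap between groups whose average log2 CPM reached 3, the 8 highest and 8 lowest differences at that level, and members of the lists where a list is described. Lists are described by counts and medians with no set test. Alternatives were DESeq2 1.42.0 and its size factors, total counts, limma 3.58.1, other filters, a 1.5-fold test, a replicate block and leaving out each library. The script was tested on simulated counts. Replicates carry the order of the titles.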

Additional observations from a re-analysis of the deposited data

Results flagged for a closer look

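Each gene here is one whose bleomycin change differed between cells with and without doxycycline by the test of the difference itself, which is the log2 change with doxycycline minus that without it, with its adjusted p from edgeR's quasi-likelihood test. The genes are the 8 highest and 8 lowest differences among genes with an average log2 CPM of at least 3, together with genes that were called in opposite directions and were among the 4 largest changes or 2 largest differences of their list, passed or not. Of 17155 genes 3407 passed that test, and no cause was tested.

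The highest value at that level was that of SYNPO2 at 3.12, a larger rise with doxycycline. MIR193BHG had 2.32, PCK2 2.05, DDIT4 2.03, ZNF431 1.97 and PSAT1 1.95, all with a rise under doxycycline and either a fall or no call without it. H1-10 had 1.78 and FLRT2 1.72, and both fell by more than 2-fold without doxycycline, with changes of -0.41 and 0.24 with it. DCN had 1.49, KRT18 1.20 and KRT8 0.80, each higher after bleomycin with doxycycline and lower without it. KRT18 and KRT8 overlap each other in the annotation. Other list members called in opposite directions are described with their lists, such as ATF4 at 1.02, MTHFD2 at 1.12, CTSK at -1.99 and ND5 at -1.47.

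Opposite signs the other way were found in CNN1 at -1.04, ND2 at -1.51, ND3 at -1.53 and ERAP2 at -1.68, which were lower after bleomycin with doxycycline and higher without it. The lowest values at that level were H2BC4 at -2.73, TRNP at -2.84, LCE2A at -2.91, ANKRD1 at -3.00, SERPINB2 at -3.10, PAPPA at -4.28, PAPPA-AS1 at -4.28 and BMPER at -4.36. All 8 rose without doxycycline, and with doxycycline ANKRD1, SERPINB2, PAPPA, PAPPA-AS1 and BMPER rose by less. Their adjusted p-values ran from 2.6e-09 for BMPER to 6.4e-04 for TRNP.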

How the results depend on the processing

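Counts past the threshold were recomputed under the alternatives, 712 values for 43 counts, of which 630 were within 1.5 times the reported count. For lists this covers only the more frequent direction, and differences only for lists with enough called members. Counts of the less frequent direction are not among them and can move more. With DESeq2 size factors 1 gene of the ATF4 list fell against 4 as reported, and 4 lysosomal genes fell against 7. No list member or named gene whose change passed the test had a change of the opposite sign in any alternative, while fitted changes that did not pass, such as those of VCAM1, POSTN and TNC with doxycycline, took either sign. The replicate block gave 4727 genes higher and 5019 lower with doxycycline, and 1594 higher and 2277 lower in the difference. The labels name no pairing, and deviations of samples with the same number correlated by 0.013 in the doxycycline groups and by -0.012 to 0.16 over all pairs of groups. The block raised these counts and moved none of them by over 1.5 times.

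Testing against a 1.5-fold change left 1860 genes higher and 1687 lower, and 187 higher and 330 lower in the difference. It left these rising: CDK inhibitors 2, p53 targets 11, NF-kappaB genes 8, YAP targets 5, Hippo genes 3, matrix genes 10, lysosomal genes 3 and BCL2 genes 0. It left these falling: contractile genes 2, mitochondrial mRNAs 7, ribosome biogenesis genes 12 and cholesterol genes 5. Lower differences that it left were 0 for mitotic, ligand, ribosome biogenesis and cholesterol genes, 1 for p53 and MHC class I genes, 2 for NF-kappaB and contractile genes, 3 for lysosomal genes, 4 for TGF-beta genes, 5 for secreted factors, 6 for matrix genes and 12 for interferon-stimulated genes. Higher differences that it left were 1 for lamina genes, 0 for Hippo genes and 11 for ATF4 targets. This test asks for a larger change, so fewer calls follow from its construction.

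Total counts as the only scaling gave 2639 higher and 1105 lower differences, with lower differences in 3 mitotic, 7 NF-kappaB, 3 MHC class I, 2 ligand, 7 TGF-beta and 4 ribosome biogenesis genes and higher ones in 11 Hippo genes. The median difference of all genes moved by more than 0.1 under it, and the medians of homologous recombination genes (-0.07 to 0.11), YAP targets (-0.11 to 0.07) and BCL2 genes (-0.13 to 0.05) changed sign. The TMM factors were 0.902 and 0.929 in the senescent libraries without doxycycline and 1.01 to 1.05 in the other groups. Scaling by total counts leaves these factors out, so the balance of higher and lower differences depends on them. Why the factors differ was not tested.

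Leaving out single libraries gave 704 to 1563 higher and 1148 to 2340 lower differences, and 3726 to 4675 genes higher and 4022 to 5095 lower with doxycycline. Ranges of rising members were 3 to 6 for BCL2 genes and 3 to 5 for CDK inhibitors. Ranges of lower differences were 3 to 12 for mitotic, 7 to 12 for NF-kappaB, 3 to 5 for MHC class I, 1 to 5 for ligand, 7 to 10 for TGF-beta, 5 to 10 for contractile, 4 to 9 for ribosome biogenesis and 3 to 7 for cholesterol genes. Higher differences ranged from 3 to 10 for Hippo genes and from 2 to 5 for lamina genes. The lone library left in a group is assumed to vary like the other groups. Depth of 33627708 counts or more per library leaves genes with a few counts, such as IFI27, CCL20 and ASNS, as the imprecise ones.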

Other observations

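The genes in this section lie outside the rule for named genes or lists and were chosen after their values were seen. They are single examples and stand for no gene group, and their overlaps with other genes were not checked. CA9, carbonic anhydrase of hypoxic cells, went from 1.12 and 0.947 CPM to 27.8 and 26.9 CPM (log2 change 4.73, SE 0.31, adjusted p = 3.9e-06), against 2.11 without doxycycline (difference 2.62, adjusted p = 0.0038). CLDN1, a claudin of tight junctions, went from 25.0 and 23.6 CPM to 249 and 231 CPM (log2 change 3.30, SE 0.086, adjusted p = 2.4e-13), and F11R, another junction protein, rose by 4.04. The chemokine receptor CXCR4 went from 3.74 and 3.28 CPM to 60.9 and 76.2 CPM (log2 change 4.29, SE 0.14, adjusted p = 3.0e-12), with 1.06 and 1.003 CPM in senescent cells without doxycycline. PTGS2, the inducible cyclooxygenase, rose by 4.33, PDGFB by 3.61, and INHBB, an activin chain, by 2.93. PSG1 and PSG2, glycoproteins of pregnancy, rose by 2.74 and 3.22, against 4.09 and 5.01 without doxycycline, and as members of a near-identical family their reads may be split between genes. ERRFI1, a feedback inhibitor of the EGF receptor, and GPRC5A rose more with doxycycline, by 2.92 and 2.58 against 1.504 and 1.03 (differences 1.42 and 1.55, adjusted p = 6.1e-06 and 8.8e-07).

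Among the falls with doxycycline, SFRP1, a Wnt antagonist, went from 186 and 179.9 CPM to 54.0 and 61.4 CPM (log2 change -1.66, SE 0.086, adjusted p = 2.4e-10) and had a change of the opposite sign without doxycycline (0.21, difference -1.87, adjusted p = 1.2e-07). NRP1, a co-receptor for VEGF and semaphorins, and ITGA8, an integrin chain, had log2 changes of -1.604 and -2.14 with doxycycline and -0.087 and -0.49 without it (differences -1.52 and -1.65, adjusted p = 2.6e-07 and 9.7e-06). SERPINA9 went from 10.3 and 9.56 CPM to 75.8 and 83.8 CPM (log2 change 3.01, SE 0.10, adjusted p = 1.6e-12), against 0.0732 and 0.0251 CPM to 31.8 and 32.0 CPM without doxycycline, where the proliferating group held 4 counts (difference -6.23, adjusted p = 7.6e-09).

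Of the genes that rose with doxycycline, 61 had no counts in either proliferating library, 40 of them protein coding, and 33 of the 61 were also called higher without doxycycline. Genes without counts there passed the filter only through other groups and could only rise, so their direction follows from how they were picked. The reverse, a fall with no counts in either senescent library, held for 1 gene. Genes detected numbered 22307 and 23143 in the proliferating and 25572 and 25198 in the senescent libraries. Only 5 of the 61 exceeded 1 CPM in both senescent libraries. MT3, a metallothionein, was at 1.55 and 1.93 CPM, at least 43.6-fold higher against a floor of 3 counts over the proliferating group, and CD300A, a receptor of immune cells, at 1.40 and 1.17 CPM, at least 32.3-fold higher.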
